A study of Bos grunniens and Bos grunniens x Bos taurus with 6 samples.

Results

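The genes described here encode the immunoproteasome and the machinery that prepares peptides for display to the immune system, together with the lysosomal protease cathepsin S. They are the immunoproteasome subunits PSMB8, PSMB9 and PSMB10, the proteasome activator subunits PSME1 and PSME2, the class I light chain B2M, the peptide transporter subunit TAP1, the peptide-loading chaperone TAPBP, the class II invariant chain CD74 and cathepsin S itself, CTSS. These are 10 of the 31044 genes of the deposited table, and 9 of them, all but TAP1, passed the filter on low counts, which left 7504 genes for testing. Each was found by its symbol: the gene identifier holding most of the reads in rows of that name was taken, and all rows of that identifier were summed in each library. The standard subunits PSMB5, PSMB6 and PSMB7 were measured beside them.

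Muscle from cattle-yak, labelled Bos grunniens x Bos taurus, was compared with muscle from yak, labelled Bos grunniens, with 3 libraries in each group. The muscle was the longissimus dorsi, which runs along the back, and RNA was read as full-length cDNA on a nanopore instrument. No treatment is labelled, and the labels do not give age, sex or rearing. The labels also do not tie libraries to animals. The p-values therefore speak of the variation among 6 libraries, part of which may be technical.

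Depth was even, at 2366057 to 2769106 counted reads in cattle-yak and 2350851 to 2502603 in yak. Markers of muscle fibres were abundant in every library: the 10 of 12 listed markers with a usable gene summed to 162940 to 178100 CPM in cattle-yak and 225910 to 241510 CPM in yak. Of these 10 markers, DES and TTN rose and MB, MYH2 and ACTA1 fell. The calls of ACTA1, DES and MYH2 were lost with some libraries left out (edgeR adjusted p up to 0.0999), and that of ACTA1, at -0.65, also from rows with its symbol (-0.35) or reference transcripts alone (-0.18). CPM are read counts scaled to 1 common library size, here also corrected for library composition by the trimmed mean of M values (TMM). Of the 7504 tested genes, 6.45% were called higher and 6.18% lower in cattle-yak by edgeR's quasi-likelihood test at an adjusted p under 0.05.

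The proteasome is a barrel-shaped protease that cuts proteins marked for disposal. In immune cells, and in other cells exposed to interferon gamma, newly built particles carry PSMB8 in place of PSMB5, PSMB9 in place of PSMB6 and PSMB10 in place of PSMB7, which shifts the cut sites toward peptides that class I molecules can bind. PSME1 and PSME2 form a ring that caps the barrel, TAP1 and its partner carry the peptides into the endoplasmic reticulum, TAPBP helps to load them, and B2M is the light chain of the class I molecule that displays them. CD74 guards the binding groove of class II molecules, and cathepsin S cuts CD74 away in the lysosomes of antigen-presenting cells. Muscle fibres normally carry little of the class I and class II display.

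In the cattle-yak muscle PSMB8, PSMB10 and CTSS rose beyond the spread between libraries, by 3.12-fold, 2.35-fold and 2.71-fold. No gene of the set was called lower. These 3 of 9 tested genes stand beside the 6.45% of all genes called higher. In the same 3 genes all cattle-yak libraries lay above all yak libraries, which was the case for 16.9% of the tested genes. The other 6 tested genes had overlapping groups and did not pass. The standard subunits PSMB5, PSMB6 and PSMB7 had negative fold changes and did not pass either; their directions turned, without passing, under some counting or scaling rules.

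**Figure D1:**
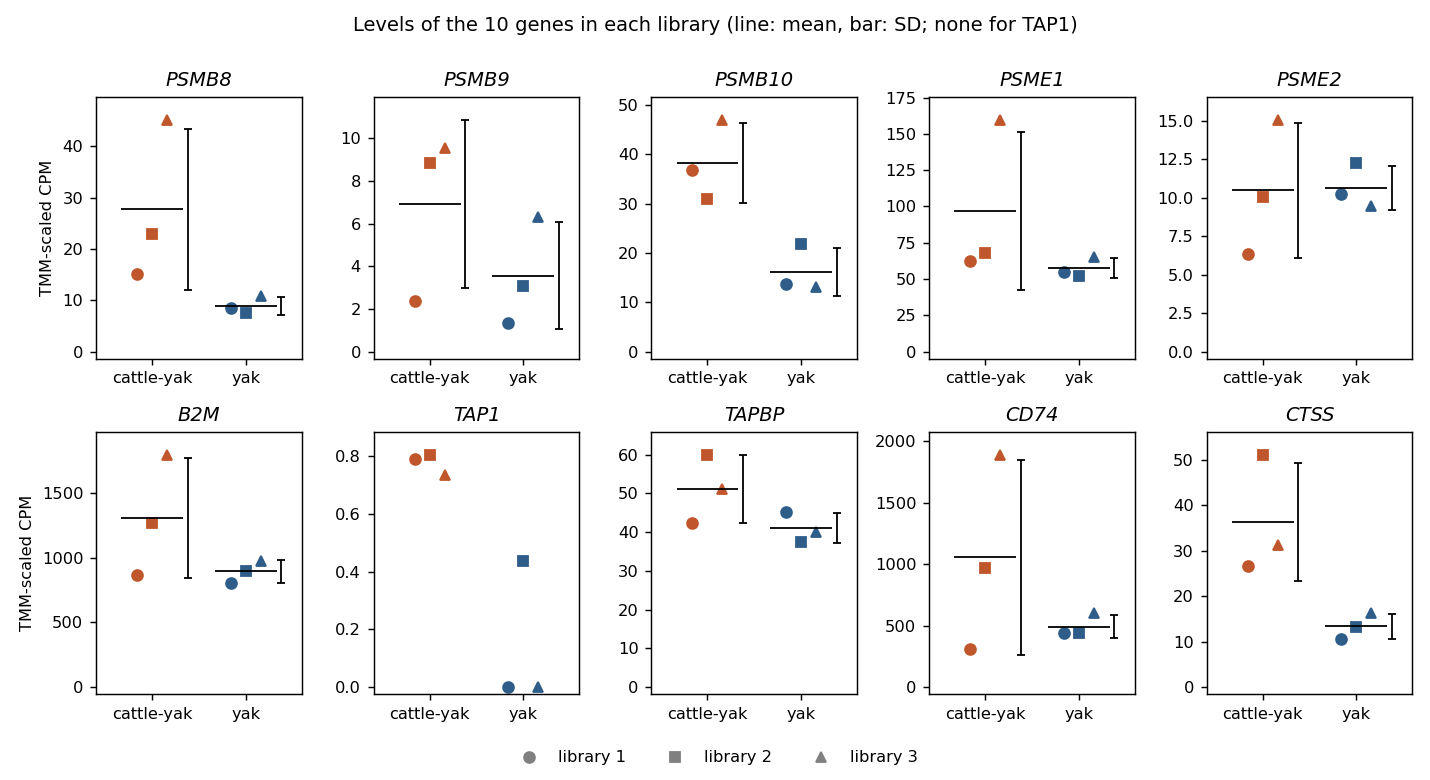
Level of each of the 10 genes in TMM-scaled CPM (vertical axes, linear) in the 3 cattle-yak libraries (left) and the 3 yak libraries (right), with the group mean and SD except for TAP1, which had few reads. The groups are apart for PSMB8, PSMB10 and CTSS, and cattle-yak library 3 is the highest point for 7 of the 9 tested genes.

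**Figure D2:**
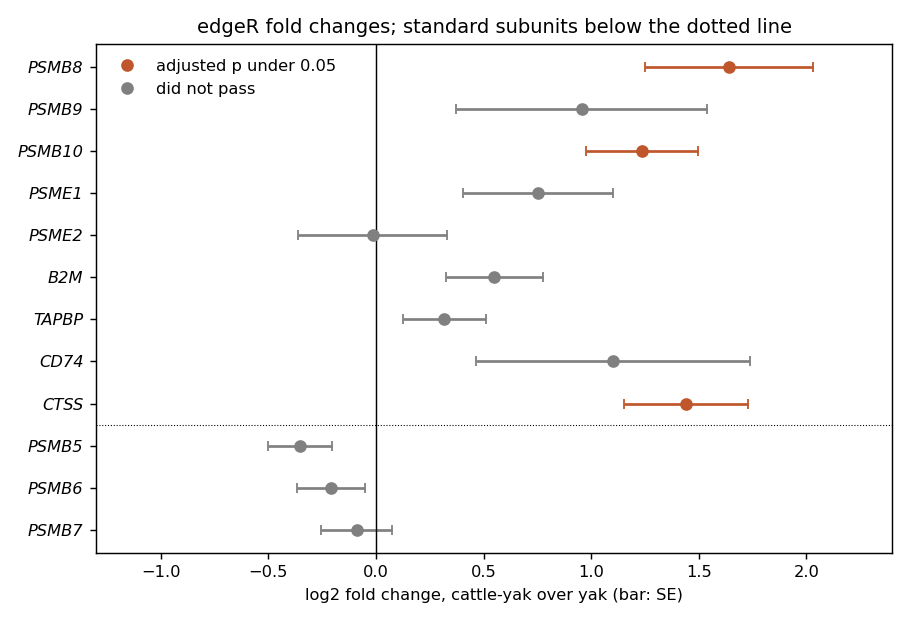
Log2 fold change of cattle-yak over yak for the 9 tested genes and, below the dotted line, the 3 standard proteasome subunits, with bars of 1 SE. PSMB8, PSMB10 and CTSS passed at an adjusted p under 0.05, and the standard subunits lie left of 0.

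Among the immunoproteasome subunits, PSMB8 carries the chymotrypsin-like cutting site. It had 15.0, 22.9 and 45.2 CPM in cattle-yak libraries 1, 2 and 3, against 8.43, 7.42 and 10.8 CPM in yak libraries 1, 2 and 3. Every cattle-yak library was above every yak library, but cattle-yak library 3 held 123 of the group's 218 reads, and the yak libraries held 60 together. The log2 fold change was 1.64 ± 0.39 (SE, n = 3 each, edgeR adjusted p = 0.0175). Without cattle-yak library 3 it was 1.08 (edgeR adjusted p = 0.0579), without yak library 1 it was 1.59 (edgeR adjusted p = 0.0703) and without yak library 2 it was 1.51 (edgeR adjusted p = 0.0840), so the call was lost each time. The fold change itself fell most without cattle-yak library 3. Leaving out yak library 1 or 2 moved it little, while its SE grew to 0.48 and 0.47.

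PSMB10, whose subunit has the trypsin-like site, was more even within the groups. It had 36.8, 30.9 and 47.0 CPM in cattle-yak and 13.8, 21.8 and 13.1 CPM in yak. The lowest cattle-yak library lay above the highest yak library, with 298 reads in cattle-yak and 110 in yak. The log2 fold change was 1.24 ± 0.26 (SE, n = 3 each, edgeR adjusted p = 0.00770), and it stayed between 1.05 and 1.49 with the call kept when any 1 library was left out (edgeR adjusted p up to 0.0454).

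PSMB9 was the scarcest of the 3 subunits in reads, 54 in cattle-yak and 24 in yak. Its levels of 2.37, 8.84 and 9.55 CPM in cattle-yak overlapped those of 1.33, 3.06 and 6.31 CPM in yak. The log2 fold change of 0.96 ± 0.58 (SE, n = 3 each) did not pass (edgeR adjusted p = 0.322), and its approximate 95% interval from -0.19 to 2.10 takes in both 0 and the value of PSMB8. Its symbol stood on 32.1% of its reads, and the remainder lay in a reference transcript without a symbol that the file describes as the same subunit. In the RefSeq annotation of the yak assembly Bosgru_T2T1.0, TAP1 sits between PSMB8 and PSMB9.

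PSMB5 had 364, 344 and 389 CPM in cattle-yak, against 445, 502 and 455 CPM in yak. All its cattle-yak libraries lay below all yak libraries, as in 16.1% of tested genes, with a log2 fold change of -0.35 ± 0.15 that did not pass (SE, n = 3 each, edgeR adjusted p = 0.140). For PSMB6 the log2 fold change was -0.21 ± 0.16 (edgeR adjusted p = 0.427) and for PSMB7 it was -0.09 ± 0.17 (edgeR adjusted p = 0.771). Directions were not fixed: PSMB5 was at 0.34 from assembled transcripts alone, PSMB6 at 0.60 from rows with its symbol and PSMB7 at 0.07 with library size alone. The symbol PSMB6 stood on 3.23% of its gene's reads, and nearly all others lay in a reference transcript described as that subunit. Of the 14 listed subunits of the standard barrel, none passed with edgeR, DESeq2 or limma-voom, and 3 had an unadjusted edgeR p under 0.05. PSMA7, at 0.39, was called higher with library size alone as the scaling (0.55, edgeR adjusted p = 0.0395). The median log2 fold change of the 14 subunits was 0.16, against 0.02 for all tested genes.

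Because each immunoproteasome subunit takes the place of 1 standard subunit, the share of the pair's reads that came from the immunoproteasome gene was taken in every library. The share describes RNA and not assembled particles, and it is compared between groups for 1 pair at a time, since gene lengths were not used. PSMB8 made up 3.97%, 6.24% and 10.4% of the reads of PSMB8 and PSMB5 in cattle-yak and 1.86%, 1.46% and 2.32% in yak. The lowest cattle-yak share (95% Wilson interval 2.91% to 5.40%) and the highest yak share (1.56% to 3.43%) had intervals that overlapped, although the shares themselves did not mix. The mean was 6.87% ± 3.26 in cattle-yak and 1.88% ± 0.43 in yak (SD, n = 3 each, two-sided exact permutation p = 0.1, the smallest that 3 against 3 allows).

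PSMB10 made up 23.0%, 20.3% and 25.6% of the reads of PSMB10 and PSMB7 in cattle-yak and 10.7%, 12.5% and 8.61% in yak. These groups were apart also by counting error, with the lowest cattle-yak interval starting at 16.6% and the highest yak interval ending at 16.1% (95% Wilson). The mean was 23.0% ± 2.64 in cattle-yak and 10.6% ± 1.95 in yak, a difference of 12.3 percentage points (SD, n = 3 each, exact permutation p = 0.1). PSMB9 made up 0.949%, 3.72% and 3.58% of the reads of PSMB9 and PSMB6 in cattle-yak and 0.541%, 0.963% and 2.14% in yak. Cattle-yak library 1 fell among the yak libraries here (exact permutation p = 0.3). Over all 6 genes the immunoproteasome reads came to 6.87%, 8.28% and 11.5% in cattle-yak and 2.84%, 3.23% and 3.31% in yak. Reads were amplified by PCR without molecular identifiers, so these intervals cover counting error and nothing else.

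**Figure D3:**
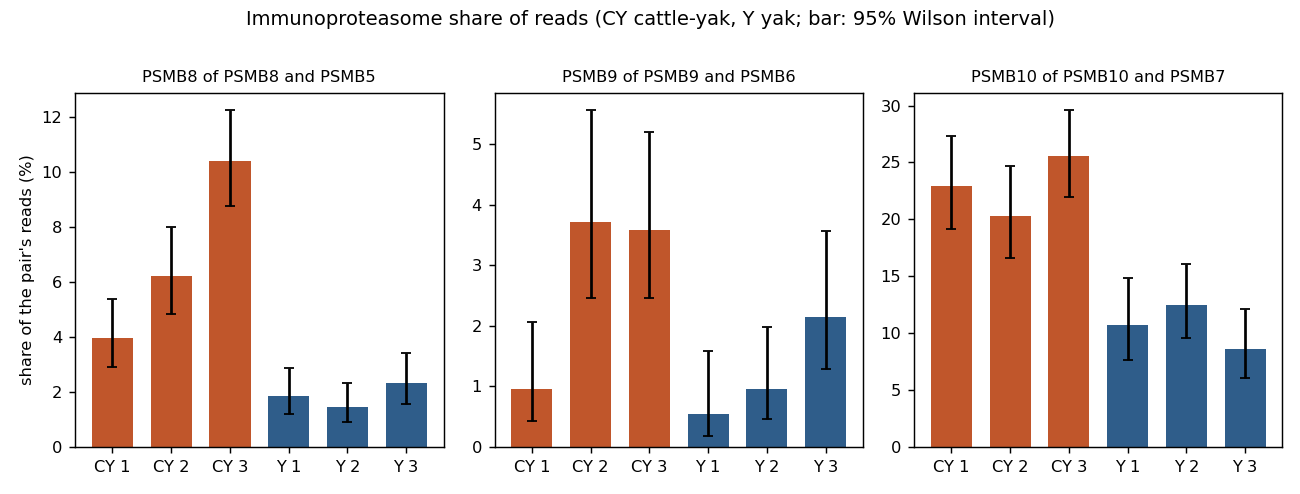
Share of a subunit pair's reads that came from the immunoproteasome gene, in percent, for the 3 cattle-yak (CY) and 3 yak (Y) libraries, with 95% Wilson intervals. PSMB10 lies between 20.3% and 25.6% in cattle-yak and between 8.61% and 12.5% in yak, whereas for PSMB9 the groups overlap.

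Of the activator subunits, PSME1 had 62.5, 67.9 and 160 CPM in cattle-yak and 54.6, 52.4 and 65.3 CPM in yak. A single library, cattle-yak 3, stood far above the other 5, and the log2 fold change of 0.75 ± 0.35 (SE, n = 3 each, edgeR adjusted p = 0.201) became 0.17 without it (edgeR adjusted p = 0.639). PSME2 had 6.33, 10.04 and 15.1 CPM in cattle-yak and 10.2, 12.2 and 9.46 CPM in yak. Its log2 fold change was -0.02 ± 0.34 (SE, n = 3 each, edgeR adjusted p = 0.984), with an approximate 95% interval from -0.69 to 0.66. The value of 1.64 estimated for PSMB8 lies outside it. Within cattle-yak the order of the libraries was again 1, 2, 3 from low to high. Of 7 further genes for assembly factors and other regulators of the proteasome, none passed with edgeR, DESeq2 or limma-voom on all 6 libraries after the filter. Of them, 2 had an unadjusted edgeR p under 0.05. PSMF1, at -0.57, was called lower without yak library 1 (-0.87, edgeR adjusted p = 0.0207) and with no filter on low counts (-0.69, edgeR adjusted p = 0.0431). The assembly factor POMP had a log2 fold change of -0.14 ± 0.15 (SE, n = 3 each).

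Among the genes of the class I route, B2M had 869, 1271 and 1797 CPM in cattle-yak and 807, 900 and 980 CPM in yak. Libraries 2 and 3 of cattle-yak were above all yak libraries, while cattle-yak library 1 lay inside the yak range. The log2 fold change was 0.55 ± 0.23 (SE, n = 3 each, edgeR adjusted p = 0.137). Without cattle-yak library 1 it was 0.77 and passed (edgeR adjusted p = 0.0213), and without cattle-yak library 3 it was 0.25 (edgeR adjusted p = 0.443). With library size alone as the scaling B2M was also called higher, but that scaling moves the median over all tested genes to 0.18, against 0.02 with TMM.

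TAPBP had 42.4, 59.9 and 51.0 CPM in cattle-yak and 45.2, 37.6 and 40.1 CPM in yak, with overlapping groups and a log2 fold change of 0.32 ± 0.19 (SE, n = 3 each, edgeR adjusted p = 0.318). Its symbol stood on 54.5% of its reads, and from reference transcripts alone the log2 fold change was 0.02. TAP1 was near the limit of detection, with 2, 2 and 2 reads in cattle-yak and 0, 1 and 0 in yak. No change of TAP1 can be read at this depth.

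CD74 varied most among the cattle-yak libraries. It had 309, 968 and 1886 CPM in cattle-yak and 437, 439 and 600 CPM in yak. Cattle-yak library 1 was the lowest of all 6 libraries and cattle-yak library 3 the highest, 6.11-fold apart. The log2 fold change was 1.10 ± 0.64 (SE, n = 3 each, edgeR adjusted p = 0.339), 1.53 without cattle-yak library 1, where it passed (edgeR adjusted p = 0.00533), and 0.36 without cattle-yak library 3 (edgeR adjusted p = 0.705). The SD of log2 CPM within cattle-yak was 1.32, larger than in 99.2% of the tested genes, while within yak it was 0.26 and unremarkable, with 48.1% of genes below it. Of 8 further tested genes of the class II list none passed with edgeR, DESeq2 or limma-voom, nor had an unadjusted edgeR p under 0.05. BOLA-DQA2, named HLA-DQA2 in the file, a class II alpha chain, had 185, 991 and 798 reads in cattle-yak and 169, 179 and 404 in yak, with a log2 fold change of 1.19 ± 0.70 (SE, n = 3 each, edgeR adjusted p = 0.346).

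CTSS had 26.5, 51.0 and 31.2 CPM in cattle-yak and 10.6, 13.1 and 16.2 CPM in yak. The groups were apart and the highest library was cattle-yak 2, not 3. The log2 fold change was 1.44 ± 0.29 (SE, n = 3 each, edgeR adjusted p = 0.00570), and between 1.12 and 1.61 with any 1 library left out, each time past the threshold (edgeR adjusted p up to 0.0292). The CTSS symbol stood on 53.4% of the gene's 369 reads, 156 reads lay in rows without a symbol and 16 in rows named CTSK or HORMAD1, its neighbours in the RefSeq annotation. Counted from rows of its own symbol alone, CTSS was also called higher (1.50, edgeR adjusted p = 0.0242).

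Of 9 further tested genes for cathepsins and for cystatins, which inhibit them, 1 rose and none fell. Without cattle-yak library 3, CST6 was called lower (-1.04, edgeR adjusted p = 0.0385), against -0.23 with all libraries. The one that rose was CSTB, cystatin B, with 76, 108 and 118 reads in cattle-yak and 32, 47 and 54 in yak. Its log2 fold change was 0.98 ± 0.25 (SE, n = 3 each, edgeR adjusted p = 0.0201). The call was lost without cattle-yak library 2 (0.91) or 3 (0.89) and without yak library 1 (0.78) or 2 (0.99), with edgeR adjusted p up to 0.0837. CST3, the secreted cystatin C, had a log2 fold change of 0.03 ± 0.20 (SE, n = 3 each, edgeR adjusted p = 0.954).

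Setting the genes side by side showed an order among the cattle-yak libraries that part of the set shared. From low to high it was 1, 2, 3 for PSMB8, PSMB9, PSME1, PSME2, B2M and CD74, but not for PSMB10, TAPBP or CTSS. How many of all tested genes had this order was not taken. Of the 9 tested genes, 7 were highest of all 6 libraries in cattle-yak library 3 and 2 in cattle-yak library 2. Of all tested genes, 14.1% and 22.4% were highest in those libraries. Within cattle-yak alone, 7 and 2 genes were again highest in libraries 3 and 2, against 30.8% and 35.6% of all tested genes. Cattle-yak library 1 was the lowest of its group for 8 of the 9 genes, the exception being PSMB10. The share of all tested genes lowest in that library was not taken. The spread within cattle-yak was wide for PSMB8, PSMB9, PSME1 and CD74, each with an SD of log2 CPM above that of at least 92.5% of tested genes. PSMB10 and TAPBP were not wide, at 48.8% and 38.4%. The standard subunits were among the least variable genes within cattle-yak, with at most 7.32% of genes below them. Within yak, PSMB5, PSMB6 and PSMB7 stood at 9.63%, 30.3% and 37.3%. PSMB9, which had few reads, was wide within yak too, with 96.5% of genes below it. These percentages take no account of how many reads a gene had.

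Cattle-yak library 1 was also the lowest of its group, and library 3 the highest, in the summed markers of macrophages, of all leukocytes and of T and NK cells. The 14 of 17 macrophage markers with a usable gene summed to 26.9, 77.5 and 95.1 CPM in cattle-yak and 21.3, 13.98 and 44.1 CPM in yak. The complement gene C1QB, made by macrophages, had 15, 49 and 71 reads in cattle-yak and 11, 6 and 25 in yak, and C1QA had 10, 38 and 46 in cattle-yak and 14, 3 and 14 in yak. The remaining tested marker of this list, C1QC, had 9, 11 and 30 reads in cattle-yak and 5, 6 and 19 in yak. Its log2 fold change was smaller, at 0.52 ± 0.58 (SE, n = 3 each, edgeR adjusted p = 0.604). Of the 3 pan-leukocyte markers tested none passed with edgeR, DESeq2 or limma-voom, and 1 had an unadjusted edgeR p under 0.05. Of the 3 macrophage markers tested none passed with edgeR, DESeq2 or limma-voom, and 2 had an unadjusted edgeR p under 0.05. Without cattle-yak library 1, C1QB and C1QA passed, with log2 fold changes of 1.87 and 1.79 (edgeR adjusted p = 0.0177 and 0.0202), and with no filter on low counts they passed at 1.34 and 1.26 (edgeR adjusted p = 0.00525 and 0.0357). The 10 of 12 markers shared by all leukocytes summed to 35.6, 73.5 and 88.9 CPM in cattle-yak and 30.6, 24.0 and 47.3 CPM in yak, and the 9 of 15 markers of T and NK cells to 4.35, 12.1 and 28.3 CPM in cattle-yak and 2.22, 6.11 and 9.01 CPM in yak. PTPRC, the leukocyte antigen CD45, had 0, 3 and 3 reads in cattle-yak and 0, 0 and 0 in yak, too few to compare. No row named CD4, CD8A or MS4A1 was found. In bulk tissue, more cells of a type and more RNA per cell cannot be told apart. The part of these cells in the differences of PSMB8, PSMB9, PSMB10, PSME1, B2M, CD74 and CTSS was not tested. In cattle-yak library 1 the macrophage sum lay within the yak range, and single markers went both ways. The following examples have few reads and were named after their values were seen. Of the macrophage list, CD163 had 7 reads in cattle-yak library 1 and 1, 0 and 3 in yak, whereas TYROBP had 0 and 2, 3 and 5. Of the leukocyte list, LSP1 had 14 reads in cattle-yak library 1 and 3, 1 and 1 in yak, whereas RAC2 had 5 and 7, 7 and 13.

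**Figure D4:**
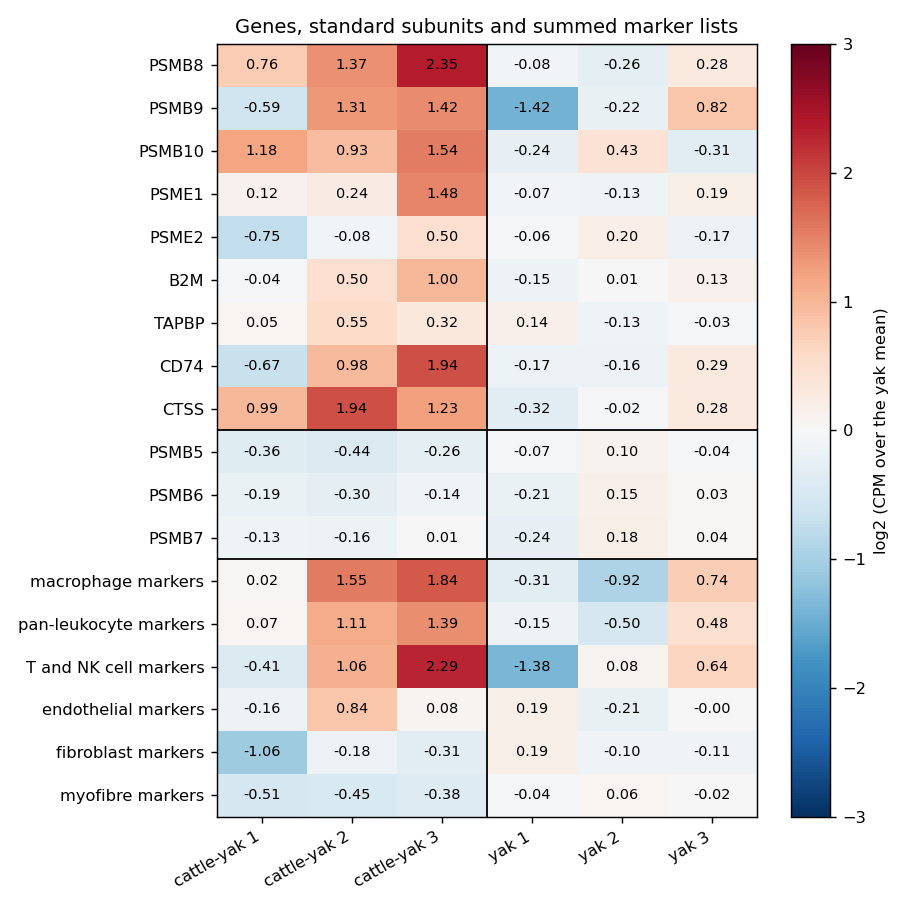
Log2 of the TMM-scaled CPM over the yak mean, per library, for the 9 tested genes (top), the 3 standard subunits (middle) and the summed CPM of 6 marker lists (bottom), cattle-yak libraries left and yak libraries right. CD74 runs from -0.67 to 1.94 and PSMB10 from 0.93 to 1.54 over the cattle-yak libraries.

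The remaining cell type markers differed less or in another way. The 11 of 12 endothelial markers summed to 62.1, 124 and 73.4 CPM in cattle-yak and 79.0, 59.8 and 69.4 CPM in yak, and of 5 tested none passed with edgeR, DESeq2 or limma-voom or had an unadjusted edgeR p under 0.05. Of 7 tested fibroblast markers 3 fell, LUM, COL3A1 and COL1A2, and none rose. Markers of dendritic cells, B cells and neutrophils had 0 to 3, 4 to 8 and 0 to 8 reads in a library, and none could be tested.

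Interferon signalling genes showed no called change. Of 8 tested, none passed with edgeR, DESeq2 or limma-voom, none had an unadjusted edgeR p under 0.05, and the median log2 fold change was 0.27. Of 31 interferon-stimulated genes with a usable gene, 5 had enough reads for the test and 1 rose. It was IFITM3, a membrane protein that restricts viral entry, with 83, 172 and 126 reads in cattle-yak and 54, 53 and 67 in yak (log2 fold change 0.94 ± 0.26, SE, n = 3 each, edgeR adjusted p = 0.0327). The IFITM3 call was lost with limma-voom (adjusted p = 0.0631) and without any 1 library except cattle-yak 1 (edgeR adjusted p up to 0.124). The related IFITM1 had a log2 fold change of 0.79 ± 0.32 (SE, n = 3 each, edgeR adjusted p = 0.138), and passed at 1.07 without cattle-yak library 1 (edgeR adjusted p = 0.0136). The 31 genes summed to 106, 247 and 206 CPM in cattle-yak and 114, 106 and 119 CPM in yak. ISG15, named after its values were seen, had 1, 11 and 56 reads in cattle-yak and 2, 2 and 1 in yak and was not tested.

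**Figure D5:**
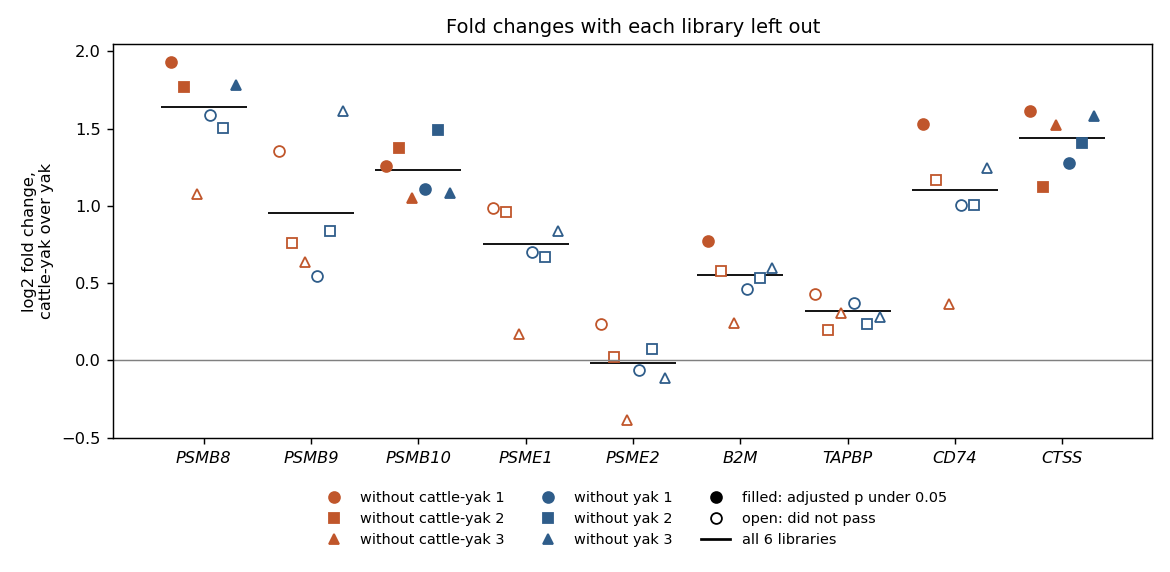
Log2 fold change of cattle-yak over yak for the 9 tested genes with all 6 libraries (line) and with each library left out (symbols, filled where the adjusted p stayed under 0.05). PSMB10 and CTSS stay filled throughout, PSMB8 opens without cattle-yak 3, yak 1 or yak 2, and CD74 and B2M fill without cattle-yak 1.

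Long reads allowed the genes to be followed by transcript. Of 15804 transcripts tested, 9.64% were called higher and 8.86% lower in cattle-yak by edgeR. Among the 39 tested transcripts of the 10 genes, 17 of them from B2M, 7 were called higher and none lower: 2 of CTSS, 2 of PSMB10 and 1 each of PSMB8, PSME1 and B2M. Some of the called transcripts met the filter on low counts through cattle-yak alone. In yak, that of B2M had 0 to 2 reads, that of PSME1 3 to 6 and TALONT000858639 of CTSS 5 to 9. For these a call of lower was hardly possible, so the count of calls is not evidence of a direction. The PSMB8 call lay in the reference transcript (ENSBGRT00000040904), with 22, 33 and 82 reads in cattle-yak and 11, 9 and 17 in yak (log2 fold change 1.68 ± 0.47, SE, n = 3 each, edgeR adjusted p = 0.0271). It was lost without cattle-yak library 3 (1.01) and without yak library 1 (1.58) or 2 (1.45), with edgeR adjusted p up to 0.116.

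PSMB10 was spread over 3 main assembled transcripts. TALONT000403752 had 17, 45 and 53 reads in cattle-yak and 7, 10 and 13 in yak, and TALONT000403813 had 56, 17 and 35 in cattle-yak and 14, 13 and 5 in yak. Both were called higher, with log2 fold changes of 1.75 ± 0.43 and 1.56 ± 0.47 (SE, n = 3 each, edgeR adjusted p = 0.0129 and 0.0352). The first call was lost without cattle-yak library 3 (1.49), yak library 1 (1.52) or yak library 2 (1.70), and the second without any 1 library except cattle-yak 2, with edgeR adjusted p up to 0.125. The third, TALONT000403815, had 17, 10 and 23 reads in cattle-yak and 9, 27 and 11 in yak and no called change (-0.09 ± 0.45, edgeR adjusted p = 0.915). It held 16.4% ± 2.97 of the gene's reads in cattle-yak and 40.3% ± 12.7 in yak (SD, n = 3 each). Transcript usage within PSMB10 did not pass (edgeR adjusted p = 0.180).

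The 2 largest CTSS transcripts, TALONT000858645 and TALONT000858639, were called higher with log2 fold changes of 1.69 ± 0.43 and 1.64 ± 0.42 (SE, n = 3 each, edgeR adjusted p = 0.0140 and 0.0151). The first call was lost without cattle-yak library 2 (1.47) or yak library 1 (1.29), the second without cattle-yak library 2 (1.37), yak library 2 (1.42) or yak library 3 (1.54), with edgeR adjusted p up to 0.0718. They held 39.6% and 25.5% of the gene's reads in cattle-yak and 31.9% and 23.6% in yak, so the gene's rise was not the rise of 1 transcript alone. In B2M the 2 main transcripts, with 46.5% and 32.1% of the pooled reads, did not pass. Both passed without cattle-yak library 1, at 0.69 and 0.97 (edgeR adjusted p = 0.0321 and 0.00768). The second, TALONT001296962, also passed without yak library 3 (0.92), with library size alone (0.87) and with no filter on low counts (0.67), with edgeR adjusted p up to 0.0486. A minor B2M transcript, TALONT001279083, named here after its values were seen, had 11, 17 and 15 reads in cattle-yak and 0, 0 and 2 in yak. Its call (edgeR adjusted p = 0.00314) was kept in each of the 10 alternative edgeR fits of the transcripts that tested it. These fits share the same counts, and the transcript met the filter on low counts through its cattle-yak reads alone. Keeping the call therefore gives no separate support. The fit with a mean of at least 10 CPM left it out, and transcripts were not fitted with DESeq2 or limma-voom.

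In PSME1 the called transcript was TALONT000202233, also named after its values were seen, whose nearest described protein in the file is from Bos indicus, with 12, 18 and 21 reads in cattle-yak and 3, 6 and 3 in yak. Its log2 fold change was 1.88 ± 0.47 (SE, n = 3 each, edgeR adjusted p = 0.0125), but the call was lost without cattle-yak library 2 (1.82) or 3 (1.74) and without yak library 1 (1.69) or 3 (1.69), with edgeR adjusted p up to 0.0577. The main PSME1 transcript, described by a Bos mutus protein, had 64, 67 and 207 reads in cattle-yak and 60, 73 and 75 in yak. The species of a description cannot be read as the origin of a transcript. The called transcripts TALONT000858639 of CTSS and TALONT000403813 of PSMB10 are described by proteins of Callorhinus ursinus and Neophocaena asiaeorientalis, neither of them cattle or yak. A hybrid carries cattle and yak alleles, and an allele assembled as a separate transcript cannot be told apart from a change of isoform here.

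Transcript usage was tested in 6 of the 10 genes and passed in none by edgeR's gene-level test or by the Simes method, beside 8.62% of all genes tested for usage. PSMB10 and TAPBP had an unadjusted edgeR p under 0.05. Among the standard subunits PSMB5 passed (edgeR adjusted p = 0.0422): its reference transcript held 90.7% ± 2.03 of reads in cattle-yak and 94.5% ± 1.08 in yak (SD, n = 3 each). That call was lost by the Simes method (edgeR adjusted p = 0.273) and without cattle-yak library 1 or 2 or yak library 1, 2 or 3 (edgeR adjusted p up to 0.217).

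The genes whose profile over the 6 libraries lay closest to those of the 3 called genes were sought among 3815 named genes with a mean of at least 10 CPM. Closeness was the root mean square difference of mean-centred log2 CPM. For PSMB8 they were LRIF1 (0.17), MYL3 (0.17) and DMPK (0.26), for PSMB10 SIK3 (0.16), KIAA2013 (0.17) and PHYHD1 (0.18), and for CTSS PPP4R3A (0.17), PABPC1 (0.19) and PTP4A3 (0.19). None of the 3 profiles had another gene of the set among its 3 closest. PSMB9 and TAP1 were too low to be candidates. With 3 places among 3815 genes, the absence of the others says little about the set.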

How the data were processed

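Transcripts were counted in 6 libraries of longissimus dorsi muscle, 3 from cattle-yak and 3 from yak. Per the labels' protocols, total RNA was made into libraries with a nanopore cDNA-PCR kit. Per the submitters' processing notes fastp, minimap2 and GSNAP were used (roles and versions not stated). The genome build was not given in the sources used here. In the deposited table are whole-number read counts for 179856 transcripts and the authors' CPM, which match each count's share of its library total, on the CPM scale, to within 0.005. The CPM given in the text were instead scaled by TMM.

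Counts of all rows of a gene identifier were summed, giving 31044 genes; 61 transcripts without an identifier, at most 0.0025% of a library's counts, were left out. The gene test was the robust quasi-likelihood test of edgeR 4.0.16 (R 4.3.3), after filterByExpr and with TMM scaling, adjusted by Benjamini-Hochberg over 7504 genes at a threshold of 0.05. Transcripts were tested likewise over 15804, and transcript usage with diffSpliceDGE over 1821 genes, for transcripts with at least 5% of the gene's reads. SE is the fold change over the square root of the F statistic. The 95% intervals of fold changes are normal approximations from this SE and can be narrower than the test itself would give. Shares were compared by exact permutation tests. Alternatives used DESeq2 1.42.0, limma 3.58.1, other scalings, filters and counting rules, and each library left out. The fits were tested on simulated data.

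The genes and lists were chosen with earlier results of these data known. Named genes were the 10 genes, the 3 standard subunits, up to 4 called and 2 other abundant genes of each list, the 3 closest profiles and transcripts with at least 10% of a gene's reads. Gene neighbours come from RefSeq (Bosgru_T2T1.0). No 2 libraries agreed within sampling noise. A few listed genes are not reported here.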

Additional observations from a re-analysis of the deposited data

How the results depend on the processing

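PSMB10 and CTSS were called higher under every alternative in which they were tested, and PSMB8 under all but leaving out cattle-yak library 3, yak library 1 or yak library 2. Between 2 and 5 of the 10 genes were called with 1 library left out, and 1 (PSMB8) from reference transcripts alone, where 4 could be tested. With a replicate block 3 were called, with 890 changed genes in all, 2585 transcripts and 117 genes of changed usage, and the block also called C1QB (1.43, edgeR adjusted p = 0.0488) and the B2M transcript TALONT001296962 (0.69, edgeR adjusted p = 0.0294); libraries with the same number did not deviate together (correlations -0.0382, -0.0157 and 0.0168), and the block's exact sign-flip p for each share was 0.25, the smallest that 3 pairs allow. With 1 library left out the number of changed genes ran from 544 to 997 (948 with all libraries), of changed transcripts from 2053 to 3006 (2924) and of genes with changed usage from 71 to 145 (157). A mean of at least 10 CPM left 1651 changed transcripts and 91 genes with changed usage, a 10% minimum transcript share left 81, and the Simes method 57. The difference in share of PSMB8 was 11.5 points from assembled transcripts alone (4.99 from all), and that of PSMB9 was 8.11 points from rows carrying the symbol and from assembled transcripts (1.53 from all). These rules keep few reads of the standard subunits: 3.23% of PSMB6 reads carry the symbol or are assembled, and 92.8% of PSMB5 reads are in the reference transcript. With 1 library left out these differences ran from 3.23 to 6.44 points for PSMB8, 1.05 to 2.43 for PSMB9 and 11.03 to 13.7 for PSMB10. TNNI2, a muscle fibre marker, was at 0.85 from reference transcripts alone and -0.19 from all its rows. Library size alone gave 676 genes higher and 296 lower, against 484 and 464 with TMM. Reads were few for TAP1 and PSMB9, which limits what can be seen for them.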
